A study of Caenorhabditis elegans with 2 samples.

Results

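The 72 protein-coding genes of Caenorhabditis elegans whose names begin with msp-, ssp- or spe- were examined for summits of MADF-6 binding. They were selected by name from the 19973 protein-coding genes on the nuclear chromosomes in Ensembl release 115 of the WBcel235 assembly, and comprise 31 msp, 12 ssp and 29 spe genes. The names record sperm function or expression, so binding values do not enter the rule. Chromatin immunoprecipitation followed by sequencing (ChIP-seq) had been performed on whole worms of strain RW12237, in which the endogenous madf-6 gene carries a CRISPR insertion, madf-6::TY1::EGFP::3xFLAG, and an antibody against GFP was used. Animals were synchronised as starved L1 larvae after bleaching and were taken as young adults at 63 h. There was 1 group of 2 biological replicates. No untagged strain, other stage, male or isolated germline was analysed here, so the cells in which a summit arose cannot be told apart.

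The major sperm proteins encoded by the msp genes assemble the cytoskeleton with which nematode sperm crawl, and they also act as the extracellular signal that starts oocyte maturation. The ssp genes encode small sperm-specific proteins with an MSP domain. The spe genes were named in screens for defective spermatogenesis or fertilization and encode proteins of many kinds, among them membrane proteins of the sperm surface, kinases, motors and vesicle-traffic factors. In hermaphrodites sperm are made around the last larval stage and the germline then switches to oocytes. MADF-6 is named for its MADF domain, which contacts DNA and resembles that of Myb proteins.

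Of the 72 sperm genes, 4 had a summit of the conservative peak list within 500 bp of the annotated 5′ end, which is 5.56% (95% Wilson interval 2.18% to 13.4%). Among all protein-coding genes 12.3% met the same rule. All 4 were spe genes, and spe-39, spe-5 and spe-15 are described here. None of the 31 msp genes and none of the 12 ssp genes had such a summit. A summit is the position of highest enrichment that the authors deposited with each peak, and the conservative list holds the 4384 peaks that passed their reproducibility threshold over both replicates.

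The sequences at 2 of the called summits are shown because they let the spe-39 site be compared with a site that lacks its most prominent word. Each runs 50 bases to either side of a summit, was taken from the RefSeq WBcel235 genome and is written 5′ to 3′ on the strand of the sperm gene. Capitals mark GCGCCTTT, the reverse complement of AAAGGCGC, which was the 8-base word most enriched at the conservative summits. The spe-39 window is centred on a conservative summit, and the spe-29 window on a summit called in replicate 2 alone.
spe-39, chrV:6785010-6785110, plus strand: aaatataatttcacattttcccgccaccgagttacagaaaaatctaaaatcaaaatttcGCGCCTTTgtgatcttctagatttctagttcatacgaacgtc
spe-29, chrIV:9933921-9934021, plus strand: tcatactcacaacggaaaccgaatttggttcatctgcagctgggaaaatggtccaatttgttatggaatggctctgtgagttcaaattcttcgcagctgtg
The word began 9 bp after the conservative summit at spe-39, and the spe-29 window did not hold it. In all, 382 of the 4384 conservative summit windows held the word on either strand (8.71%), against 76 of 8768 windows centred 300 bp to the sides of the summits (0.867%).

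The msp genes are shown by the stretch from 120 to 41 bases before the start codon, because 25 of the 31 have a GATA word there, starting 78 to 84 bases before the start codon on the strand of the gene. The share of all genes with such a word at that position was not counted. Several of these windows are close copies of one another, so the 25 are not independent. These genes were chosen after their values were seen: msp-19, msp-51 and msp-77 for the common form on chromosome IV, msp-45 for the form on chromosome II, and msp-142 because it had the highest msp rank while lacking the capitals. Capitals mark a GATA word, either AGATAA or its variant form TGATAA, and the TATA-like word TATAAA.
msp-19, chrIV:5260469-5260548, plus strand: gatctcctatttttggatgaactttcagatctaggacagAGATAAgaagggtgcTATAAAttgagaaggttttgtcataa
msp-51, chrIV:5295381-5295460, minus strand: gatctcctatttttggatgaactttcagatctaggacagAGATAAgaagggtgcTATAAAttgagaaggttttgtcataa
msp-77, chrIV:9894511-9894590, plus strand: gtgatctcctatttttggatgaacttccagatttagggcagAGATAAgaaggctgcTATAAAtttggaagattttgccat
msp-45, chrII:5157124-5157203, minus strand: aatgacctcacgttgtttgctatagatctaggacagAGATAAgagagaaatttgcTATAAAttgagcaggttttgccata
msp-142, chrII:5797807-5797886, plus strand: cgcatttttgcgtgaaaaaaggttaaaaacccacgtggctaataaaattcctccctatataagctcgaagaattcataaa
The windows of msp-19 and msp-51 were identical over all 80 bases. No msp gene had a summit of a thresholded list within 500 bp of its 5′ end.

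The gene spe-39, which encodes a conserved vesicle-traffic protein needed for the membranous organelles of spermatocytes, had the strongest summit of the 72 genes. Its conservative summit lay at chrV:6785060, 391 bp upstream of the 5′ end in the sequence between genes, with a deposited signal of 1099 and rank 134 of 4384. The signal was 302.2 in replicate 1, at rank 176 of 2803, and 730.9 in replicate 2, at rank 141 of 4519. Signal scales differ between lists, so each value was read only against its own list. The medians were 148.7 in the conservative list, 71.9 in replicate 1 and 99.4 in replicate 2, and the spe-39 peak was above all of them. The replicate summits were 381 and 380 bp upstream of spe-39, on the word GCGCCTTT itself, which spans chrV:6785069-6785076.

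This summit was shared. It lay 157 bp upstream of spn-4, which encodes a maternal RNA-binding protein of the early embryo and is transcribed in the opposite direction, with its 5′ end 548 bp from that of spe-39. The summit was therefore nearer to spn-4 than to spe-39 in the conservative list, and the same held in replicate 1, at 167 bp against 381 bp, and in replicate 2, at 168 bp against 380 bp. When each summit was given to its nearest protein-coding 5′ end alone, spe-39 lost its call and 3 sperm genes remained. The ranked list, made before thresholding, held a weaker summit closer to spe-39, 180 bp upstream, with signal 201.8 but a reproducibility score of only 73. Replicate 1 listed it 182 bp upstream at signal 34.2, and replicate 2 listed no summit there.

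An unshared summit was found at spe-5, which encodes a B subunit of the vacuolar proton pump. The conservative summit was on chromosome I at 5103423, 53 bp inside the gene in its 5′ UTR, with signal 167.6 at rank 1939. The signal was 56.8 in replicate 1 at rank 1849 and 103.0 in replicate 2 at rank 2179, with summits 43 and 53 bp inside. The replicate summits were thus close together, while the replicate 1 signal was under the median of its list. The gene chp-1 ends 105 bp upstream on the same strand. The start of chp-1 had a conservative summit of its own, 1506 bp upstream of spe-5 with signal 163.6 at rank 1997, and pas-3 lies beyond it on the same strand. Replicate 2 placed that summit at the same base and replicate 1 placed it 1388 bp upstream of spe-5.

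The gene spe-15, which encodes a myosin VI motor that sorts components between sperm and the residual body, had 3 conservative summits within 2000 bp of its start on chromosome I, of which 1 met the 500 bp rule. That summit, at 1446340, lay 157 bp upstream of the 5′ end with signal 160.8 at rank 2031, and no other 5′ end shared it. Replicate 1 placed it 173 bp upstream, with signal 56.2 at rank 1872, and replicate 2 placed it 151 bp upstream, with signal 200.6 at rank 1028. The other conservative summits were stronger and fell just outside the window. They lay 591 bp upstream, with signal 442.5 at rank 602, and 554 bp inside the gene in an intron, with signal 394.9 at rank 701. The 5′ end of a tRNA gene was 87 bp from the intronic summit. Replicate 1 also had a summit 432 bp upstream with signal 32.8, so that it had 2 summits inside the window.

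**Figure D1:**
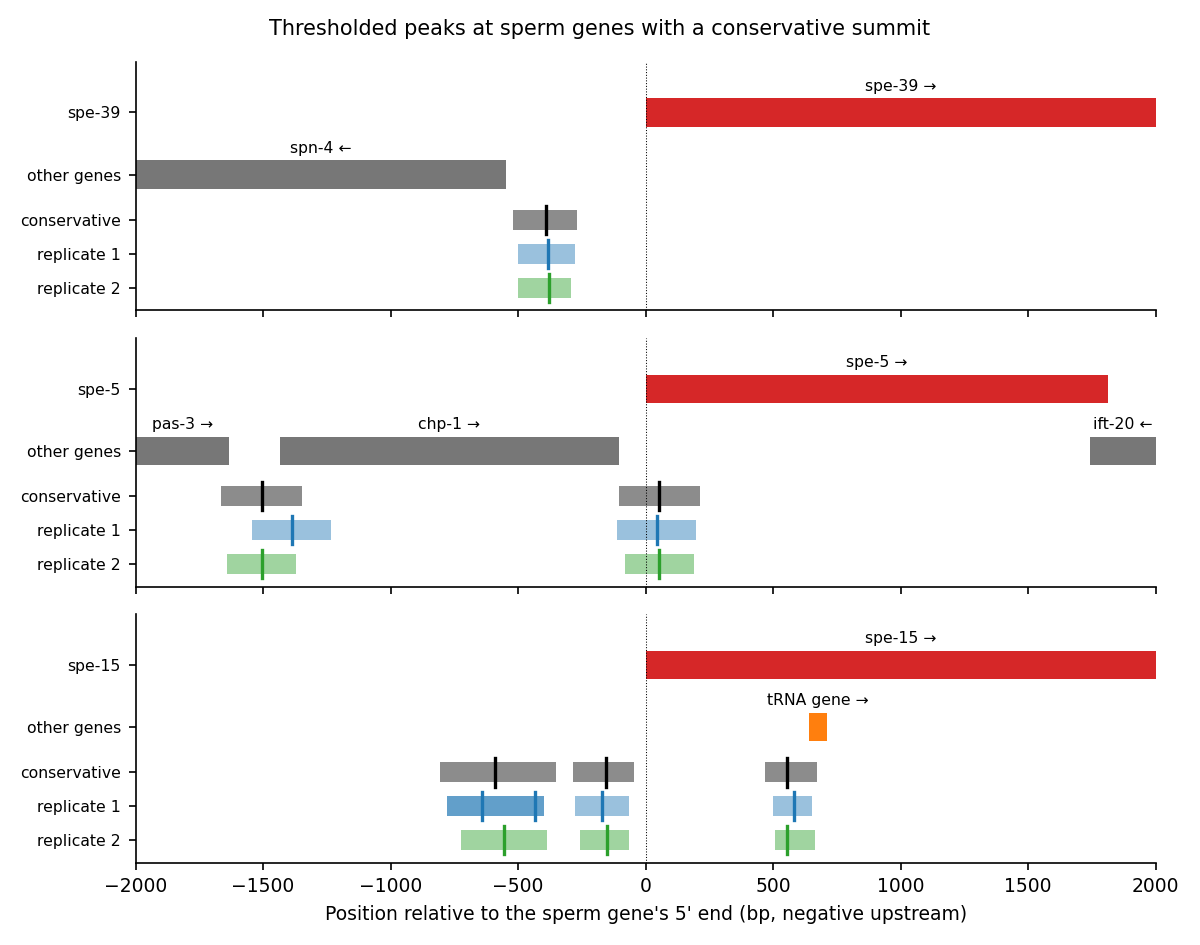
Thresholded peaks at spe-39, spe-5 and spe-15, plotted by distance in bp from the 5′ end of each sperm gene, with its direction of transcription drawn to the right. Bars are genes or peak intervals, vertical ticks are summits, arrows give direction relative to the sperm gene, and protein-coding and tRNA genes are drawn. The spe-39 summit sits between divergent genes at 391 bp upstream, the spe-5 summit sits at the gene start behind another gene on the same strand, and spe-15 has summits on both sides of its start.

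Across all genes with a conservative summit, 913 of 2462 (37.1%) shared that summit with another protein-coding 5′ end, and 1110 (45.1%) with any annotated 5′ end. The sperm genes had 1 shared summit among 4. Because spe-5 follows another gene closely, the spacing was counted for every gene after the maps were seen. A protein-coding gene on the same strand ended within 500 bp upstream of 10 of the 72 sperm genes (13.9%), against 18.1% of all genes and 25.3% of all genes with a conservative summit. The families differed: this held for 8 of 29 spe genes (27.6%), 2 of 12 ssp genes (16.7%) and 0 of 31 msp genes. The spe share was thus above that of all genes, while the share over all sperm genes was below it. C. elegans has operons, in which genes in tandem are transcribed from 1 upstream promoter and later genes are trans-spliced, but whether these genes belong to operons was not tested.

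A pair of further spe genes passed the threshold in 1 replicate only. The gene spe-48 had a summit in replicate 1, 54 bp upstream with signal 75.2 at rank 1340, above the median of that list. It was shared with Y51F10.11, a divergent gene whose 5′ end was 126 bp from the summit and 180 bp from that of spe-48. Replicate 2 did not have it: the nearest summit in its ranked list was 13960 bp away. The gene spe-29, for a small membrane protein of the spe-8 group that acts in sperm activation, had a summit in replicate 2, 91 bp inside the gene, in its coding sequence, with signal 53.2 at rank 4099 of 4519. No other 5′ end shared it, but the gene F25H8.2 ends 1 bp upstream of spe-29 on the same strand. In the ranked list of replicate 1 the nearest summit was 27 bp upstream of spe-29 with signal 16.99 at rank 17365.

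With these, 5 sperm genes were called in the thresholded list of replicate 1 (6.94%), against 8.75% of all genes. The thresholded list of replicate 2 also called 5 (6.94%), against 12.9% of all genes. The less strict list over both replicates called the same 4 genes as the conservative list (5.56%), against 13.4% of all genes. In total 6 sperm genes were called in any of the 4 thresholded lists (8.33%), against 15.1% of all genes, and 4 were called in every one (5.56%), against 8.05% of all genes. No msp or ssp gene was called in any. Within the spe genes the share was 4 of 29 in the conservative list (13.8%, interval 5.50% to 30.6%) and 5 of 29 in each replicate (17.2%). These intervals hold the shares of all genes. The upper limits were 11.0% for msp and 24.2% for ssp in the conservative list, so the msp interval ends below the 12.3% of all genes and the ssp interval does not. In replicate 1 the msp interval, with the same limit, holds the 8.75% of all genes. The intervals treat genes as independent, which neighbouring msp genes are not, and no test against all genes was made.

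**Figure D2:**
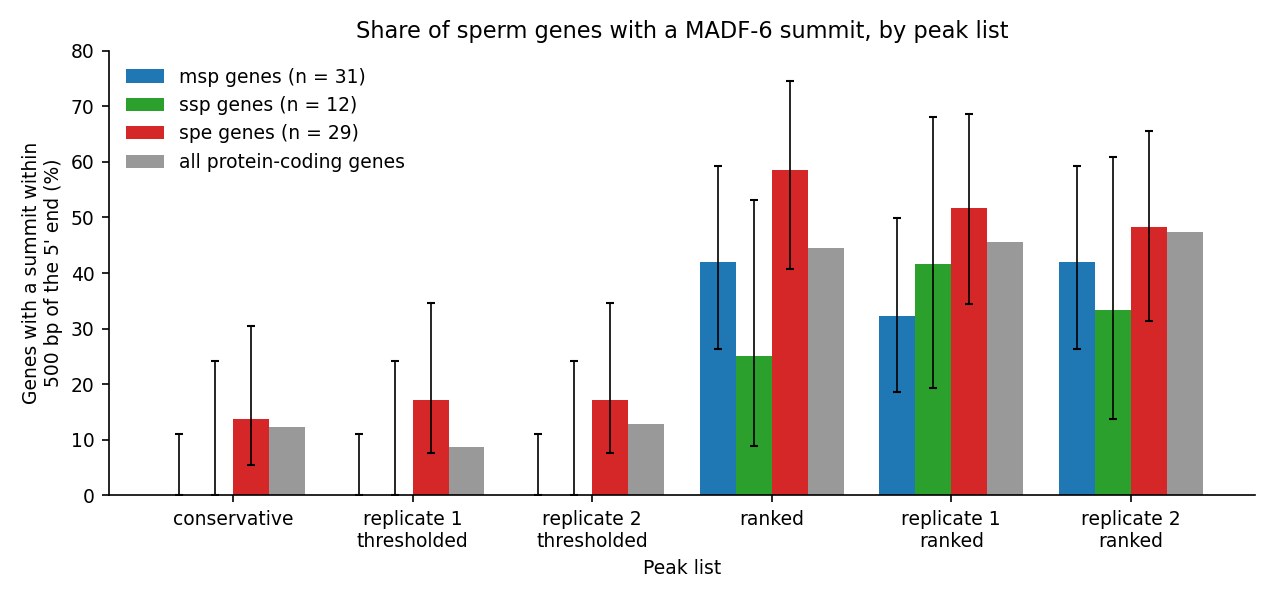
Percentage of msp, ssp and spe genes, and of all protein-coding genes, with a summit within 500 bp of the 5′ end in the conservative list, the replicates' thresholded lists and the ranked lists. Bars are shares and lines are 95% Wilson intervals that cover counting error and treat genes as independent. The msp and ssp bars are at 0 in the 3 thresholded lists shown, while spe reaches 13.8% in the conservative list.

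The chromosomes carrying the sperm genes differ in how many of their genes were called. The conservative share of all genes was 19.4% on chromosome I, 13.8% on II, 20.8% on III, 12.9% on IV, 8.13% on V and 1.87% on X. The msp genes lie on II, with 13 genes, and IV, with 18 genes, and no sperm gene of the 3 families lies on X. If each sperm gene had the share of its own chromosome, 10.3 would have been called, against 4 found. By family that count was 4.12 for msp against 0 found, 1.71 for ssp against 0 found, and 4.44 for spe against 4 found. These counts are descriptions, since neighbouring msp genes share their surroundings and are not independent.

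Other protein-coding genes with 5′ ends within 10000 bp of a sperm gene were also counted. Of 108 neighbours of msp genes 9 were called in the conservative list (8.33%), as were 5 of 60 neighbours of ssp genes (8.33%) and 21 of 110 neighbours of spe genes (19.1%). Over all sperm genes the share was 35 of 265 (13.2%), against 12.3% of all genes. The median distance to the nearest conservative summit was 10126 bp for msp genes, 11685 bp for ssp genes and 4462 bp for spe genes, against 11419 bp for all genes.

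Within each family, the uncalled gene with the closest conservative summit was msp-57, ssp-34 or spe-9. The msp-57 summit lay 940 bp downstream of the 5′ end and the ssp-34 summit 1368 bp downstream, and neither gene was listed in the ranked list within 500 bp. Across the families the called gene nearest the limit of 500 bp was spe-39 at 391 bp, and the closest beyond it was msp-57 at 940 bp. The gene spe-9, for a sperm surface protein with EGF repeats that is needed for sperm to enter the oocyte, had conservative summits 1236 and 1899 bp into the gene, with signals of 128.8 and 96.4. Each lay over a tRNA gene within spe-9, whose 5′ ends were 46 and 24 bp from the summits. No msp or ssp gene had a conservative summit anywhere in its body. Summits also lay 1376 bp into spe-43, in an intron with signal 139.6, and 3840 bp into spe-51, in a coding exon with signal 92.1. These 2 genes were named after their values were seen.

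Following the lists below the threshold added msp and ssp genes at low ranks. The ranked list behind the conservative list holds 63808 peaks and reached 33 sperm genes (45.8%), against 44.5% of all genes, so that the share was near the background. The 33 were 13 msp, 3 ssp and 17 spe genes. Chromosome shares alone would give 34.3 in all, 14.1 for msp, 5.65 for ssp and 14.5 for spe. The second ranked list reached 31 (13 msp, 4 ssp and 14 spe), against 45.4% of all genes. Replicate 1's ranked list reached 30 sperm genes (41.7%), against 45.5% of all genes, and replicate 2's reached 31 (43.1%), against 47.3%. Over the 4 ranked lists 44 sperm genes had a summit in at least 1 (61.1%), against 57.4% of all genes, and 28 had none.

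The order within the ranked list differed from the total. Its first 5000 ranks reached 5.56% of sperm genes, against 13.6% of all genes. The first 10000 reached 8.33%, against 19.3%, and the first 20000 reached 18.1%, against 27%. By rank 60000 the shares were 43.1% and 43.9%. In replicate 1 the first 2000 ranks reached 6.94% of sperm genes, against 7.01% of all genes, and in replicate 2 they reached 4.17%, against 7.42%. The first 10000 ranks reached 8.33% of sperm genes in each replicate, against 18.9% of all genes in replicate 1 and 19.2% in replicate 2. Further down, the shares were 37.5% against 43.9% at 50000 ranks in replicate 1 and 41.7% against 46.1% at 60000 ranks in replicate 2.

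**Figure D3:**
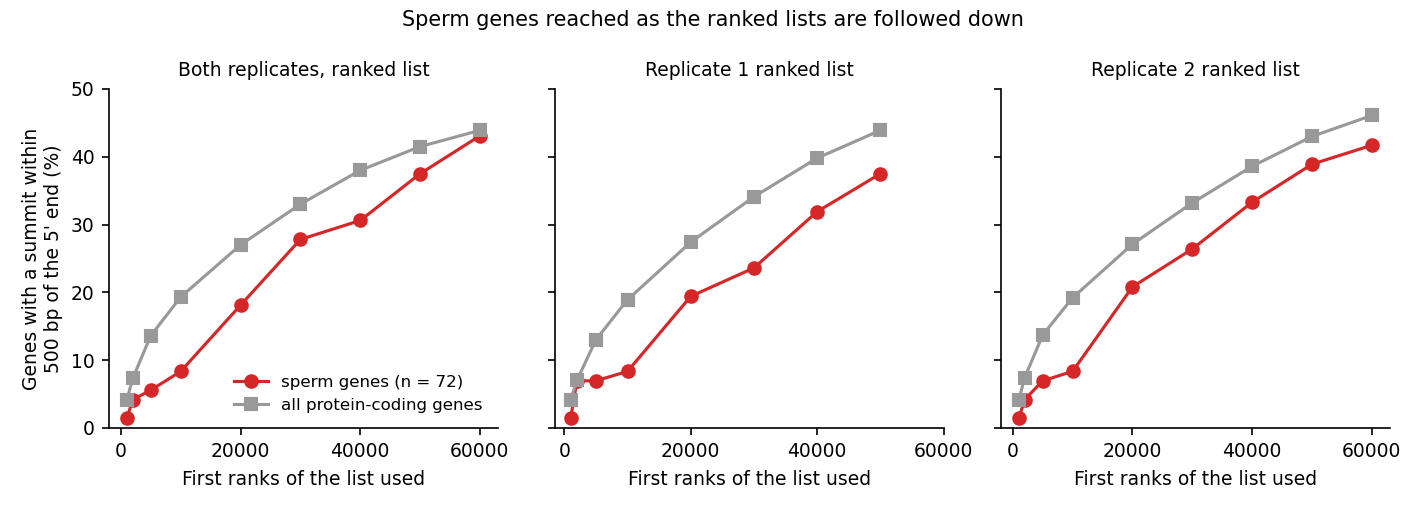
Percentage of sperm genes (red circles) and of all protein-coding genes (grey squares) with a summit within 500 bp of the 5′ end, against the number of first ranks used, in the ranked list over both replicates and in each replicate's own. The red points lie below the grey ones at 10000 ranks in each panel, at 8.33% in all 3, and in the combined list the shares are 43.1% and 43.9% at 60000 ranks.

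Below the called genes, the highest-ranked members included spe-6, msp-142, spe-18, spe-19 and spe-47. The gene spe-6, for a casein kinase I-like protein that restrains sperm activation, had a summit 346 bp inside the gene with signal 56.3 at rank 8640. Its replicate ranks were 12940 and 10430, with signals of 19.5 and 36.4. For spe-18, whose product is needed to assemble MSP into fibrous bodies, the summit lay 284 bp upstream with signal 49.0 at rank 11844. The replicates placed it on different sides, 343 bp upstream in replicate 1 and 225 bp inside in replicate 2. In spe-19, for another membrane protein of the spe-8 group, it lay 457 bp upstream with signal 48.7 at rank 11977, but replicate 1 listed none. At spe-47, for a protein with an MSP domain, it was 457 bp inside with signal 41.6 at rank 16901. None of these 5 genes was within the first 5000 ranks of a replicate's own list.

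None of the listed msp summits was within the first 10000 ranks. The highest was that of msp-142, 280 bp inside the gene with signal 50.96 at rank 10842. The 13 msp signals ran between 3.54 and 50.96 in a list whose median over all peaks was 27.7. Of the 13, 10 (76.9%) carried the lowest reproducibility score in the list, 38. This compares with 2044 of the 8886 genes with a listed summit (23.0%) and 42.2% of all peaks in the list. The number at the lowest score was smaller in the other ranked lists. It was 6 of 13 msp genes in the second ranked list, 5 of 10 in replicate 1 and 5 of 13 in replicate 2. The shares of all genes were not counted for those lists. The 3 ssp genes were ssp-37, ssp-19 and ssp-36, all 3 with the summit inside the gene and with signals between 8.52 and 39.5. The 17 spe signals ran between 2.55 and 1099. The gene spe-44, which encodes the SAND-domain transcription factor that promotes expression of many sperm genes, had a summit 81 bp inside with signal 17.9 at rank 45246. Replicate 1 listed none for it, and replicate 2 had one 293 bp upstream at rank 21369.

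**Figure D4:**
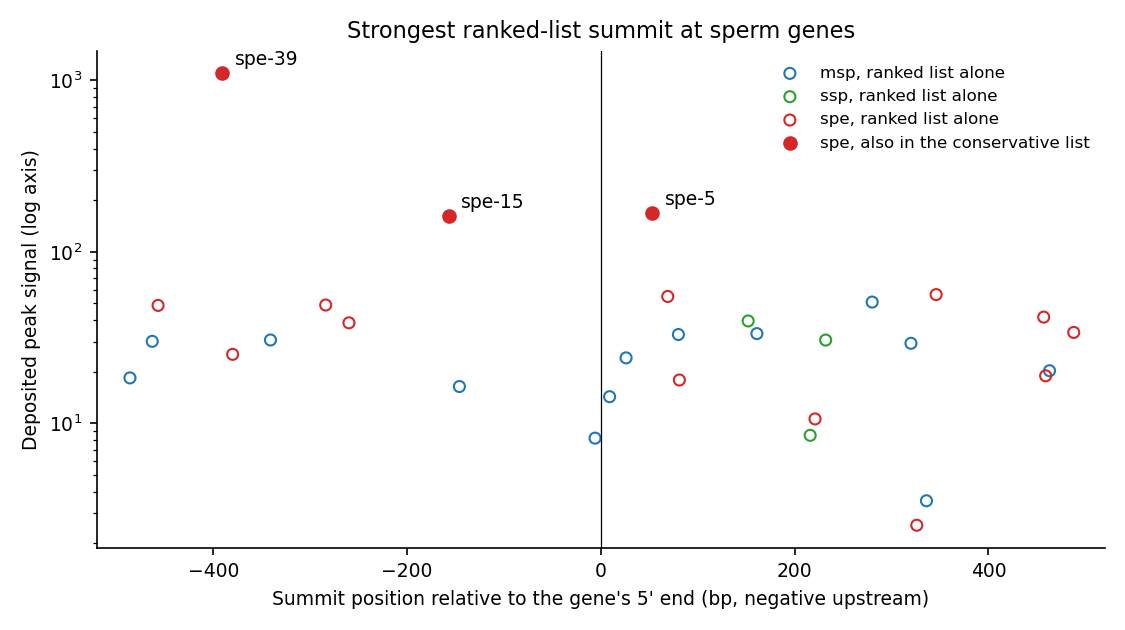
Strongest ranked-list summit at 31 of the 33 sperm genes that have one, by its distance from the 5′ end in bp and its deposited signal on a log axis. Filled points are spe-39, spe-5 and spe-15, which are also in the conservative list, with signals between 160.8 and 1099, and open points are the others, which lie at 56.3 or below.

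In the replicates' own ranked lists 20 sperm genes had a summit in both (27.8%), against 36.8% of all genes. A summit was listed in replicate 1 alone for 10 sperm genes (13.9%), against 8.71% of all genes, and in replicate 2 alone for 11 (15.3%), against 10.5%. Neither list had one for 31 (43.1%), against 44% of all genes. The replicate summits lay within 100 bp of each other at 14 of the 20, and this was not counted for all genes. By family, 6 msp genes were in both lists, 4 in replicate 1 alone and 7 in replicate 2 alone. For ssp these counts were 3, 2 and 1, and for spe 11, 4 and 3. In the combined ranked list 3 of the 33 sperm genes shared a summit with another protein-coding 5′ end (9.09%), against 1686 of 8886 genes (19.0%). They were spe-39 with spn-4, msp-36 with C04G2.5 and msp-59 with ZK354.2, and none shared with another sperm gene in that list. The msp-65 summit also had 2 other annotated 5′ ends within 500 bp, neither of a protein-coding gene. Sharing with any annotated 5′ end was not counted over all genes for the ranked list. In the ranked list of replicate 1, msp-79 and ssp-36 rested on a single summit, at rank 53737, and both are counted above.

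Sequence repeated elsewhere in the genome surrounds the msp genes, and reads from such sequence are hard to place. Of 31 msp genes, 28 have coding sequences of 381 bases, and over the 378 pairs of these the identity was between 86.1% and 99.5%, with a median of 92.5% and no identical pair. Within 500 bp of the 5′ end, the share of 50-base words that also occur elsewhere had a median of 31.5% over msp genes, with a range of 7.77% to 63.9%. The median was 3.31% for ssp genes and 0% for spe genes, against 0% for all genes. It was at least 50% for 5 msp genes, no ssp or spe gene, and 2.33% of all genes. The msp genes with a ranked summit had a median of 38.3% (n = 13), and those without one 25.3% (n = 18). How multiply mapping reads were treated is not given in the sources used here, and the part of repeats in the absence of msp calls was not tested. The spe genes, of which 4 were called, had at most 18.9%.

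**Figure D5:**
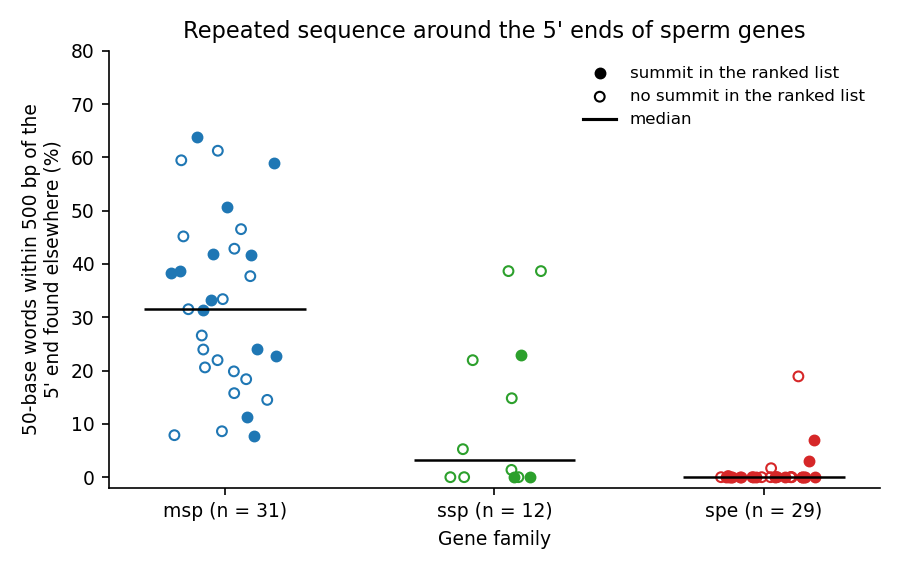
Share of 50-base words within 500 bp of the 5′ end that occur elsewhere in the genome, in percent, with 1 point per gene of each family and a line at the median. Filled points have a summit in the ranked list and open points do not. The msp medians stand at 31.5%, ssp at 3.31% and spe at 0%, and filled and open msp points overlap.

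Words in the promoters were counted from 250 bases before to 50 after the 5′ end on both strands. The summit word AAAGGCGC was in none of the 72 sperm promoters, against 333 of 19973 promoters (1.67%). Within 500 bp it was in 2 sperm genes (2.78%), spe-39 and spe-44, against 1018 of all genes (5.10%). Of these, spe-39 had a conservative summit and spe-44 did not. No summit at spe-5, spe-15, spe-48 or spe-29 in a thresholded list had the word within 50 bp.

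GATA words, the letters bound by the factor family that includes ELT-1, which is known to bind msp promoters, were frequent in the msp and ssp promoters. AGATAA was in 19 of 31 msp promoters (61.3%), 3 of 12 ssp promoters (25%) and 4 of 29 spe promoters (13.8%), against 21.2% of all promoters. TGATAA was in 9 msp (29.0%), 8 ssp (66.7%) and 8 spe promoters (27.6%), against 30.2% of all. AGATAA or TGATAA was in 26 msp (83.9%), 10 ssp (83.3%) and 10 spe promoters (34.5%), against 44.6% of all. TATAAA was in 24 msp (77.4%), 6 ssp (50%) and 10 spe promoters (34.5%), against 37.9%. TGATAA and TATAAA were chosen after the msp sequences were seen. On the strand of the gene, AGATAA began 79 to 84 bases before the start codon in 19 msp genes, and TATAAA 64 to 80 bases before it in 22, as in the windows printed above. Positions were not counted for other genes. A match is only a match of letters. None of the thresholded summits at sperm genes held AGATAA within 50 bp, but these were the summits of only 6 genes. The share of all conservative summits with AGATAA was not counted, so this absence has no background to be read against. TGATAA was not counted at the summits.

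Lists of other germline genes give the sperm genes a setting. A list of 37 names for other sperm genes matched 32 genes through 31 of its names, and none of these had a conservative summit, against 12.3% of all genes, while 8 had a ranked summit (25%), against 44.5% of all genes. In the second ranked list 12 of the 32 had a summit, against 45.4% of all genes. A further list held 24 genes of germ cell fate and sex determination, not split into those that promote sperm and those that promote oocytes. Its share is therefore not a share of sperm-promoting genes. The strongest conservative summits were at mog-4 with signal 1821, rnp-8 with 820.8, gld-3 with 619.0 and gld-2 with 516.9. In all, 10 of the 24 had a conservative summit (41.7%), against 12.3% of all genes. Among 30 genes of oocytes and early embryos, many for regulators of maternal mRNA and others for the eggshell, egg surface or yolk uptake, 25 had one (83.3%), led by mex-1 with 2930, chs-1 with 2551, oma-1 with 1745 and puf-3 with 1602. That last list includes spn-4, the gene that shares the spe-39 summit. The lists were chosen with earlier results of these data known, and no test of their difference was made.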

How the data were processed

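ChIP-seq against GFP had been performed on 2 biological replicates of whole young adults of 1 strain. The authors deposited 8 peak lists on ce11, which is WBcel235: a ranked and a thresholded list for each replicate and 2 of each over both replicates. Each peak has a signal, the enrichment value that the authors deposited, and a score the authors scaled from an irreproducible discovery rate, which in the lists of a single replicate does not measure agreement between the replicates; thresholded lists hold scores from 830 to 1000. Summits come from the deposited offset, another column of the authors' lists. How reads were aligned, how multiply mapping ones were handled and which peak caller was used is not given in the sources used here, and the files hold no read counts, so depth is unknown.

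Genes are from Ensembl release 115, and a gene was called when a summit lay within 500 bp of its 5′ end. Trans-splicing is common in this species, so transcription may begin elsewhere; for all 31 msp genes the annotated end was the start codon. A summit counted for every gene in reach. Peaks were ranked by signal within each list, and signals were not compared between lists. The 12 mitochondrial peaks of replicate 1 were assigned to no gene, but they are included in the ranks, totals and medians of its lists. Shares have 95% Wilson intervals (SciPy 1.17.1), which cover counting error only. Repeated sequence and words were counted in the RefSeq WBcel235 genome. Python 3.11.15, pandas 2.3.3, numpy 2.4.6 and matplotlib 3.10.9 were used, and the assignment of summits was checked on simulated data.

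Genes were named by rule: all called in a thresholded list, the 6 ranked highest otherwise, any in the first 5000 ranks of a replicate, spe-44, the uncalled gene nearest a conservative summit in each family, and up to 4 called genes of each comparison list by signal; a few of these are not reported here. The members, lists and rules were chosen with earlier results of these data known.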

Additional observations from a re-analysis of the deposited data

How the results depend on the processing

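Counted only up to 500 bp upstream, the conservative list called 2 sperm genes, spe-15 and spe-39, against 2008 of the 19973 genes, where both sides of the 5′ end gave 4, since summits such as that of spe-5 lie inside the gene. Leaving out a replicate means using the other replicate's own lists, whose counts are given above. It gave 5 called genes either way, against 12.9% of all genes without replicate 1 and 8.75% without replicate 2. The added gene differed, spe-29 without replicate 1 and spe-48 without replicate 2. The ranked lists gave 31 without replicate 1, against 47.3% of all genes, and 30 without replicate 2, against 45.5%, where the combined list gave 33. The less strict list, the upper part of the conservative peaks by signal and peak overlap in place of the summit each gave 4. Leaving out the 5 msp genes rich in repeats could not change this count, since no msp gene was called. The share of all genes was 7.91% for the upper part by signal. A window of 250 bp gave 3, without spe-39, against 8.14% of all genes, and one of 1000 bp gave 5, with msp-57 added, against 15.8%. Giving each summit to its nearest 5′ end gave 3, and using the 5′ end of any transcript gave 6, with spe-9 and spe-47 added. The share of all genes was not counted for these 2 rules, for peak overlap or for leaving out repeats. Those counts therefore cannot be set against a background. In the ranked list the second list gave 31, against 45.4% of all genes, 250 bp gave 23, against 32.8%, 1000 bp gave 42, against 51.4%, and leaving out repeats gave 30. No paired analysis was possible because there is 1 group. With no read counts and no untagged strain, the depth at which an uncalled gene could have been missed is unknown.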
